A study of Culex quinquefasciatus with 12 samples.

Results

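Cdc42 and Rab small GTPases are described here in the larval midgut of Culex quinquefasciatus after exposure to Bin toxin. The 5 genes are those that the study names as a Cdc42 homolog (CPIJ014902), Rab-7 (CPIJ009089), Rab-5 (CPIJ001495), Rab-8A (CPIJ006714) and Rab-10 (CPIJ005169). The study lists them among transcripts changed by Bin on these same samples, so a call among them gives no independent evidence of change. They were found by searching the probe names of the array for these identifiers, which gave 11 of the 43803 spots that name a gene and 5 of 19751 genes.

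Small GTPases switch between a GTP-bound form, which recruits effector proteins to a membrane, and a GDP-bound form. Rab proteins mark successive compartments of the endocytic and secretory pathways, while Cdc42 organises the actin cytoskeleton beneath the plasma membrane. Bin toxin is made of the proteins BinA and BinB of the bacterium Lysinibacillus sphaericus, binds a receptor on midgut cells of Culex larvae and is taken up into them.

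The larvae were third-instar C. quinquefasciatus of the JHB strain, starved for 3 h before treatment. Toxin-treated larvae received BinA and BinB, made in E. coli and mixed in equal molar amounts, at 80 ng/ml for 6, 12 or 18 h, and untreated larvae of the same time points received none. Each sample was a pool of midguts from a replicate of 20 larvae, so it holds no value for a single animal, and 200 ng of its RNA was labelled. Only larvae still alive at the end of the exposure were collected, treated and untreated, so the toxin samples hold survivors of the dose. Every one of the 12 arrays held untreated RNA in Cy3 and toxin RNA in Cy5, with 4 arrays at each time point, and values are log2 ratios of toxin over untreated.

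The dyes were not swapped, so any dye bias of a gene is part of its ratio at each time point, and differences between time points are free of it only if the slides shared it. Each time point had 1 slide and 1 scan of its own, so that slide and exposure time cannot be told apart in any comparison of time points. Pairs of arrays of the same time point had a Pearson's r of 0.60 to 0.88 over genes, and 72.8% to 88.5% of spots were well above background in the untreated channel and 75.4% to 85.1% in the toxin channel. The untreated samples varied less than the toxin samples. The median SD over genes of the channel level was 0.0660, 0.0539 and 0.0524 (log2) in the untreated channel at 6, 12 and 18 h, against 0.131, 0.117 and 0.118 in the toxin channel. For probes spotted on each array in duplicate, the untreated level of the same spot on a pair of arrays differed by a median of 0.0718 at 12 h and 0.0588 at 18 h, less than the difference between the duplicate spots of one array (0.137 and 0.119). At 6 h these differences were close, at 0.0967 between arrays and 0.0983 within one. In the toxin channel the order was the reverse, with 0.183 between arrays and 0.154 within one at 12 h. The design text gives 4 biological replicates of each kind, but the untreated values differed between arrays by no more than duplicate spots did within one. Duplicate spots lie at different positions of an array, while the comparison between arrays is of the same position, so the measures are not alike. The p-values below rest mainly on the spread between toxin samples. Whether the arrays of a slide shared 1 untreated RNA was not tested.

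Markers of midgut cells, which secrete digestive enzymes, were present throughout: all 8 midgut marker genes were well above background on every array, with a summed net signal of 521500 to 836048 units, a lower bound because the amylase and maltase probes were saturated. Markers of other tissues were detected as well, and no gene of any marker list was at background. These sums are in raw units, in which the toxin channel was the brighter one on every array (median net signal 98 to 222 units against 68 to 137 units in the untreated channel), so that they are not compared between channels. The 4 fat body genes summed to 16258 to 21908 units in the untreated and 17968 to 44736 units in the toxin channel at 6 h, 42006 to 50603 and 9906 to 57658 units at 12 h, and 30503 to 34951 and 10646 to 18332 units at 18 h. The 5 muscle genes summed to 13516 to 23750 units in the untreated and 19189 to 41306 units in the toxin channel over all time points, and their median log2 ratio after normalization was 0.14, -0.13 and 0.07, with none called (2, 4 and 2 genes had an unadjusted limma p under 0.05). The 8 cuticle and epidermis genes summed to 2131 to 7140 and 2507 to 35894 units, and the 2 haemocyte genes to 725 to 1519 and 698 to 3126 units. Hexamerin 2 beta, a storage protein of the fat body, fell at 18 h (log2 ratio -4.60), and apolipophorins fell at every time point (-1.18, -1.48 and -1.44), a call that was lost at 6 h with scale normalization and with normexp, the model of the local background, fitted on all spots and not only on those of even background. Vitellogenin of the same list had ratios of 0.15, 0.28 and 0.13. At 18 h, 2 of the 4 fat body genes were called lower as reported and 1 with normexp fitted on all spots. The genes of all marker lists were chosen by the study for change on these samples, so their direction gives no independent evidence of tissue content. Of 3 midgut genes named aminopeptidase N, CPIJ008387 fell at 12 h (-0.84) and CPIJ004060 at 18 h (-0.75, not called with median centring), and CPIJ008388 had 0.29 and 0.26 at these times. The part of these tissues in the values of the GTPases was not tested, and fewer cells of a type and less RNA per cell cannot be told apart in such pools.

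All 11 GTPase spots were well above background in both channels on all 12 arrays, and none was saturated or marked as an outlier. Each gene has a pair of probes, one named by the identifier alone and one whose name carries an added b of unstated meaning, and Rab-7 has 3 spots, since 1 of its probes was printed in duplicate. A gene was called changed where its log2 change reached 0.75, or 1.68-fold, with an adjusted p under 0.05 (limma's empirical Bayes test on all 12 arrays, Benjamini-Hochberg adjustment across 19751 genes). Of the 5 GTPases, none was called at 6 h, and 1, Cdc42, was called at 12 h and at 18 h, higher in toxin-treated larvae both times. The count of 0 at 6 h in the limma fit stood beside 2 genes, Rab-7 and Rab-10, with an unadjusted p under 0.05. Both also had an adjusted p under 0.05, as did 35.6% of all genes at 6 h. By unadjusted p the share of all genes can only be as large or larger, here and for such counts elsewhere in the text. Over all genes, 2.24%, 3.88% and 2.42% were called higher at these 3 times. In the same order the median of the 5 log2 ratios was -0.03, -0.14 and 0.06, beside a median of 0.01, 0.00 and 0.01 over all genes. Median centring in place of loess left these calls as they were but put the median of the 5 at 0.18, -0.01 and 0.47, so that its direction at 6 h turned.

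**Figure D1:**
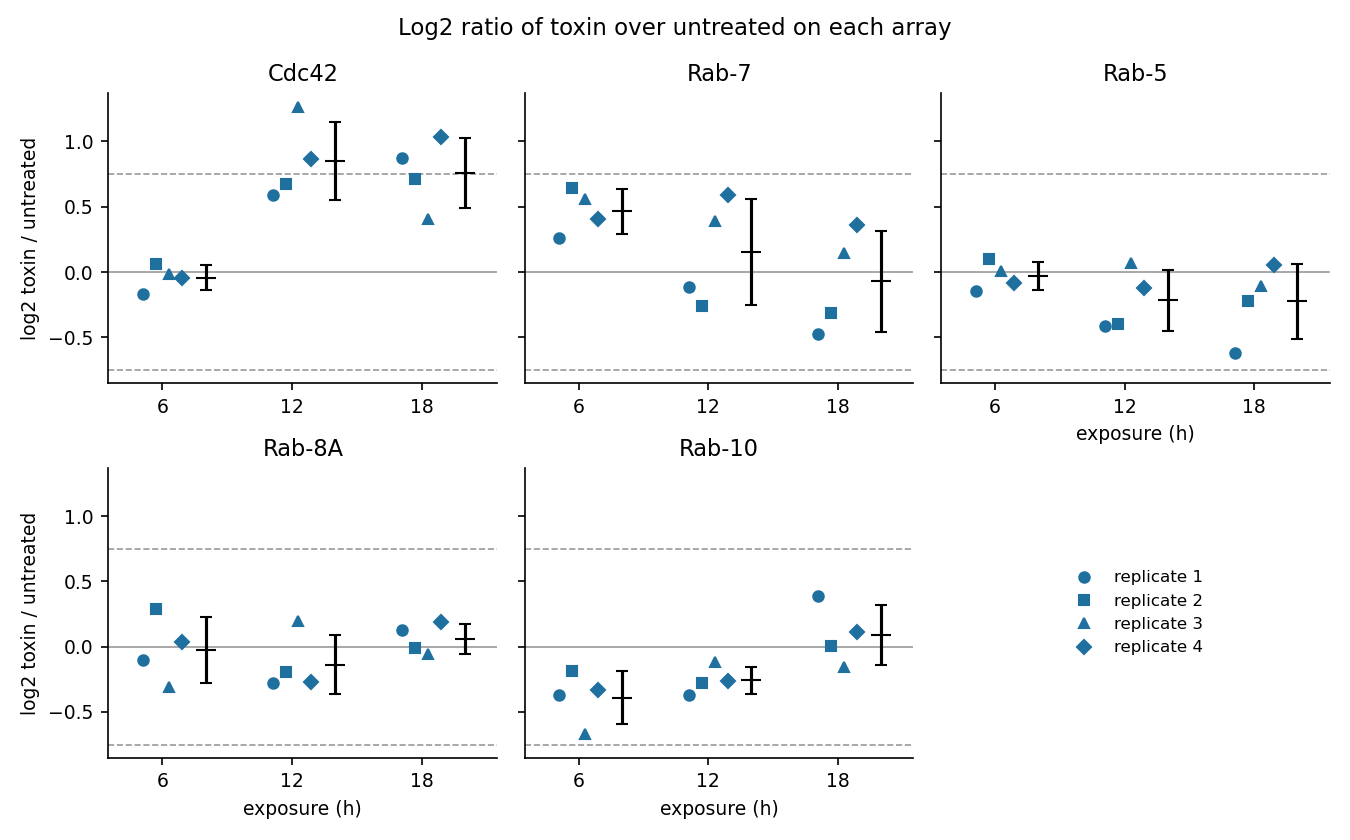
Log2 ratio of toxin over untreated (y axis) of each GTPase on each array against exposure time in hours (x axis). Symbols stand for replicates 1 to 4, the black bar and whiskers for their mean and SD, and the dashed lines for a log2 ratio of 0.75 in either direction. Cdc42 leaves the zero line at 12 and 18 h, and all other means lie between the dashed lines.

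Cdc42 rose at 12 and 18 h and was not called at 6 h. In yeast and animals this protein sets up cell polarity and drives local actin assembly, and in animal cells it also takes part in a form of uptake that does not need clathrin. The log2 ratio of Cdc42 was -0.17, 0.06, -0.02 and -0.05 at 6 h. It was 0.59, 0.67, 1.27 and 0.87 at 12 h and 0.87, 0.71, 0.41 and 1.04 at 18 h. The values of 6 h stood around 0, and the arrays of 12 and 18 h overlapped. The mean was -0.04 ± 0.09 at 6 h (adjusted p = 0.799, limma), 0.85 ± 0.30 at 12 h, or 1.80-fold (8.32e-05), and 0.76 ± 0.27 at 18 h, or 1.69-fold (0.000445). At 18 h the mean lay just above the fold threshold and 2 of the 4 arrays lay below it. Without 18 h replicate 1 it was 0.72 and without 18 h replicate 4 it was 0.66, which ended the call, while the adjusted p stayed at 0.00328 and 0.00294. The call at 12 h likewise ended without 12 h replicate 3 (mean 0.71, adjusted p 0.000315). With normexp fitted on all spots the means were 0.70 and 0.67 at 12 and 18 h, and neither was called. The log ratios that the authors deposited gave 0.73 at 18 h, which was not called either.

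The ratio of Cdc42 was higher at 12 h than at 6 h by 0.89 (SE 0.16, adjusted p = 0.00527) and higher at 18 h than at 6 h by 0.80 (SE 0.16, adjusted p = 0.00447). Of all genes, 0.906% were called higher in the first of these comparisons and 2.83% in the second. Between 18 and 12 h the difference was -0.09, with a 95% interval of -0.43 to 0.25, and none of the 5 GTPases was called by limma in this comparison. Of all genes, 3.71% were called in either direction there, and 1 of the 5 GTPases, Rab-10, had an unadjusted p under 0.05. With normexp fitted on all spots, the differences from 6 h were 0.73 (adjusted p = 0.130) at 12 h and 0.70 (0.113) at 18 h, and neither was called; the deposited log ratios gave 0.80 (0.127) and 0.76 (0.109). Without 18 h replicate 4 the difference between 18 and 6 h was 0.71 and fell below the fold threshold.

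**Figure D2:**
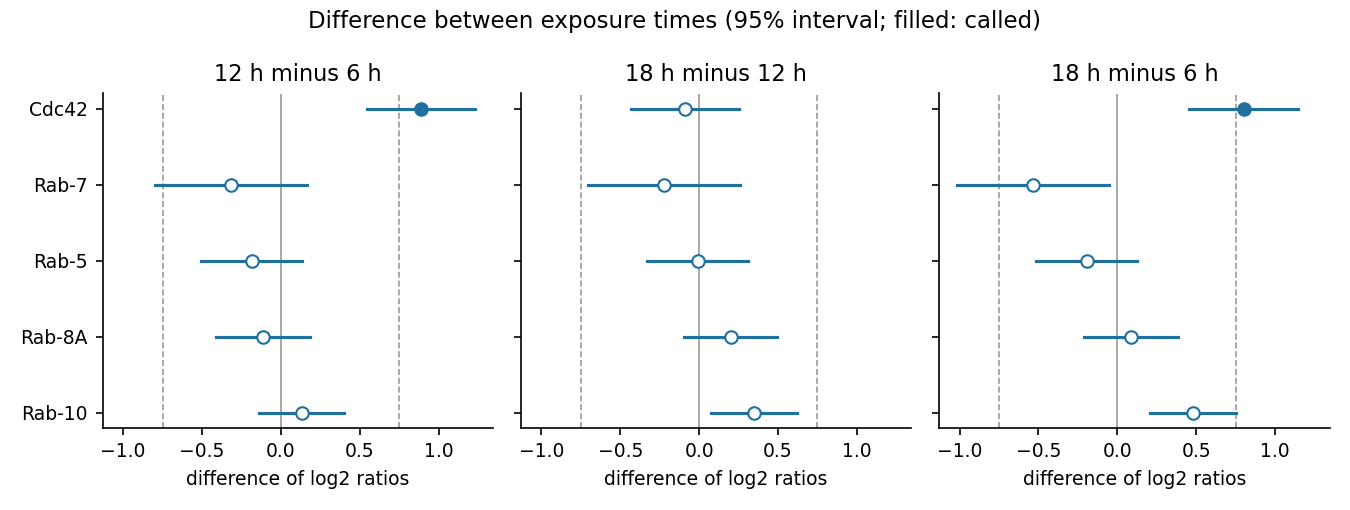
Difference of the log2 ratio of toxin over untreated between pairs of time points (x axis) for each GTPase (y axis). Points are the fitted differences, filled where called, bars are 95% intervals from the limma fit of 12 arrays, and dashed lines mark 0.75 in either direction. Cdc42 lies to the right of zero for both comparisons with 6 h, filled in both, and no other GTPase is called.

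The mean channel levels of Cdc42 moved in opposite directions between 6 and 12 h after normalization, with overlap of the toxin arrays. In raw net signal, not scaled between slides, the toxin means of its probes were 491.5 and 497.4 units at 6 h and 469.4 and 448.4 units at 12 h. The raw untreated means were lower at 12 h as well. After normalization of the brightness of arrays, the untreated level of Cdc42 (log2) was 8.52, 8.54, 8.59 and 8.53 at 6 h, 8.0, 8.03, 8.03 and 8.01 at 12 h, followed by 8.32, 8.38, 8.41 and 8.37 at 18 h. These 3 sets of untreated arrays did not overlap, with the level of 12 h the lowest. In toxin-treated larvae the level was 8.36, 8.60, 8.58 and 8.48 at 6 h, 8.59, 8.70, 9.30 and 8.87 at 12 h, followed by 9.2, 9.09, 8.82 and 9.41 at 18 h. The toxin levels of 18 h lay above all those of 6 h, by a mean of 0.62, and those of 12 h overlapped with both. Toxin arrays of 6 and 18 h did not overlap for 35.7% of all genes. A lack of overlap between slides was more common in the untreated channel: it held for 56.9% of all genes between 6 and 12 h, for 49.1% between 12 and 18 h and for 61.0% between 6 and 18 h. A shift of 1 channel is therefore given as a description, since slide and time cannot be told apart. The mean of the untreated level was lower by 0.53 at 12 h than at 6 h, and that of the toxin level was higher by 0.36. The probes of Cdc42 were the closest pair among the 5 genes, with a mean difference of 0.05 and a largest difference of 0.13 on any array, and with the probe named by the identifier alone the ratio at 18 h was 0.75 (0.748 before rounding), just short of the threshold.

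**Figure D3:**
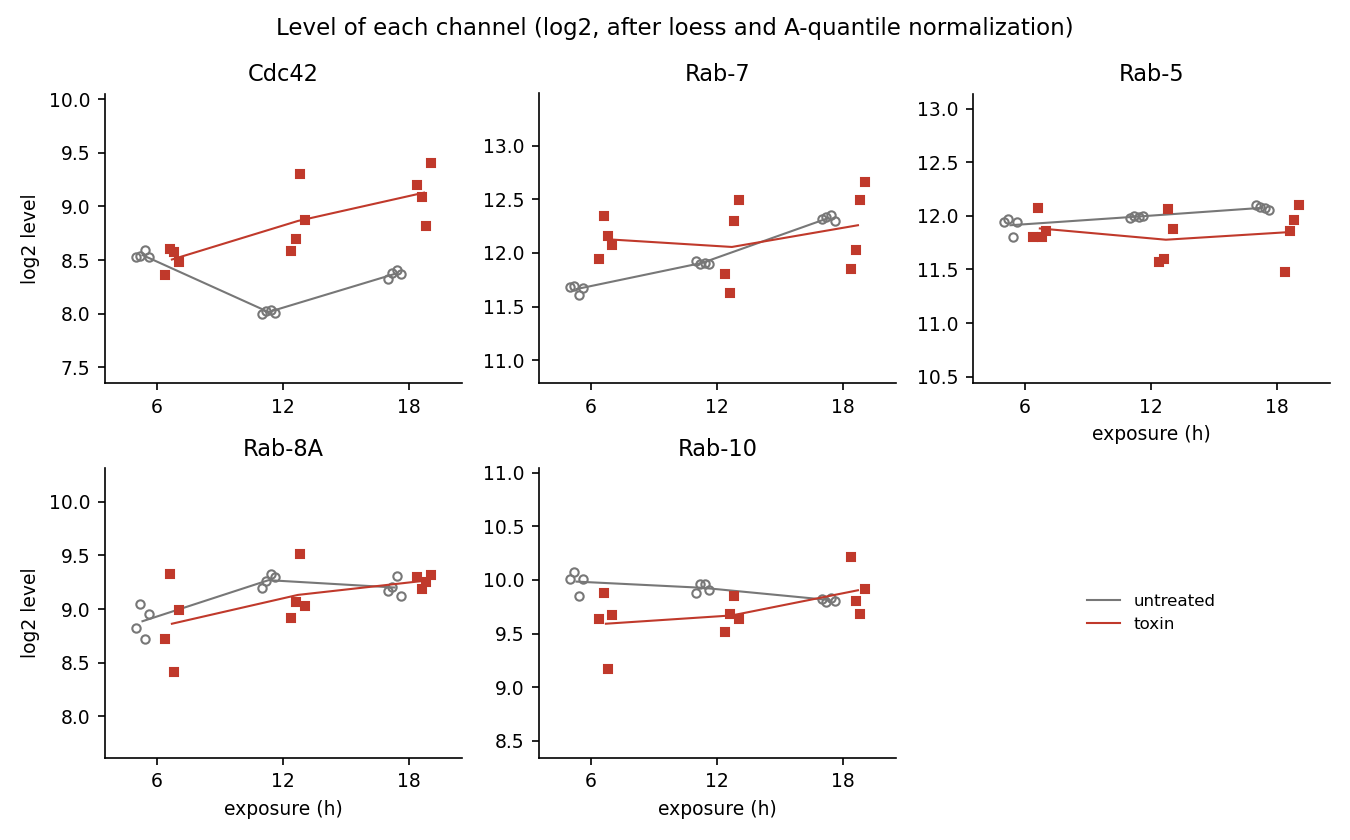
Channel level in log2 units after loess and quantile normalization of the mean brightness (y axis, 2.7 units in every panel) against exposure time in hours (x axis). Open circles are untreated samples, filled squares toxin samples, 4 arrays each, and lines join the means. The untreated level of Cdc42 is lowest at 12 h, and at 12 and 18 h every toxin sample lies above the untreated samples of its time point.

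Rab-7 marks late endosomes and directs their fusion with lysosomes in yeast and animals. Its log2 ratio was 0.26, 0.64, 0.56 and 0.41 at 6 h, above 0 on all 4 arrays. At the later times it was -0.12, -0.26, 0.39 and 0.59 (12 h) and -0.47, -0.31, 0.14 and 0.36 (18 h). At both later time points replicates 1 and 2 were below 0 and replicates 3 and 4 above it. The mean of 0.47 ± 0.17 at 6 h passed the test (adjusted p = 0.0362) but not the fold threshold, and 35.6% of all genes had an adjusted p under 0.05 at 6 h. It no longer passed without any one of the 4 arrays of 6 h (adjusted p 0.0527 to 0.129), with normexp fitted on all spots (0.0581), scale normalization (0.0547), the deposited ratios (0.0560) or the probe named by the identifier alone (0.0820). The means of 0.15 ± 0.41 at 12 h (adjusted p = 0.451) and -0.07 ± 0.39 at 18 h (0.784) did not pass, and with median centring the last was 0.35 (0.0424). The spots of Rab-7 were unequal at 6 h: the b-named probe had a mean of 0.69, and the spots of the other probe had 0.41 and 0.30. The difference between 18 and 6 h was -0.54 (95% interval -1.02 to -0.05, adjusted p = 0.115), and with the b-named probe alone it was -0.78 with an adjusted p of 0.0382, a call that the mean of the spots does not give. In the untreated channel the level of Rab-7 was 11.66 ± 0.04, 11.90 ± 0.01 and 12.33 ± 0.02 at the 3 time points, without overlap, and in the toxin channel 12.13 ± 0.17, 12.06 ± 0.40 and 12.26 ± 0.38, with overlap throughout. Such a lack of overlap between a pair of time points held for 49.1% to 61.0% of all genes in the untreated channel, where slide and time cannot be told apart.

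Rab-5, which governs the fusion of early endosomes in animal cells, was not called at any time point. Its log2 ratios were -0.14, 0.10, 0.01 and -0.08 at 6 h, -0.41, -0.40, 0.07 and -0.12 at 12 h, followed by -0.62, -0.22, -0.11 and 0.06 at 18 h. Values of the 3 time points overlapped, and 3 of 4 arrays were below 0 at 12 and at 18 h. The means were -0.03 ± 0.10, -0.22 ± 0.23 and -0.22 ± 0.29, with an adjusted p of 0.846, 0.110 and 0.132. The largest difference between time points, between 18 and 6 h, was -0.19 with a 95% interval of -0.51 to 0.13. Its direction at 6 h differed between the probes, at 0.06 ± 0.09 and -0.12 ± 0.17. With median centring the mean turned to 0.17 at 6 h and 0.21 at 18 h.

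Rab-8A and Rab-10 are related proteins that carry vesicles from the Golgi and from recycling compartments to the plasma membrane in mammals. The log2 ratios of Rab-8A were -0.10, 0.29, -0.31 and 0.04 at 6 h, -0.28, -0.19, 0.19 and -0.27 at 12 h, followed by 0.13, -0.01, -0.05 and 0.19 at 18 h. They lay on both sides of 0 at each time point and overlapped. None of its means (-0.02 ± 0.25, -0.14 ± 0.22 and 0.06 ± 0.12) passed the test, at an adjusted p of 0.873, 0.263 and 0.684. With median centring they were 0.21, -0.01 and 0.47, and the last passed with an adjusted p of 0.0021, below the fold threshold. Rab-10 was below 0 on all 8 arrays of the first pair of time points, at -0.37, -0.19, -0.67 and -0.33 at 6 h and -0.37, -0.28, -0.12 and -0.27 at 12 h, and at 18 h its values were 0.39, 0.01, -0.15 and 0.12. Only replicate 3 was below 0 at 18 h. The means of -0.39 ± 0.20 (adjusted p = 0.00478) and -0.26 ± 0.10 (0.0310) passed the test without reaching the fold threshold, and 0.09 ± 0.23 at 18 h did not pass (0.492). By adjusted p alone, 45.9% of all genes passed at 12 h. The value of 12 h no longer passed with scale normalization (0.0610), the scanner software's ratio (0.182), the b-named probe alone (0.0837), or without 12 h replicate 1, 2 or 4 (0.0839 to 0.115). Median centring gave -0.15 (adjusted p = 0.221), -0.16 (0.220) and 0.53 (0.000754).

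The ratio of Rab-10 was higher by 0.48 at 18 h than at 6 h (95% interval 0.21 to 0.75, adjusted p = 0.0192), again below the fold threshold and not passed without 6 h replicate 3 (0.0503) or with the b-named probe alone (0.101), and 19.6% of all genes passed by adjusted p alone in this comparison. Between 18 and 12 h the difference was 0.35 (adjusted p = 0.0721). The probe named by the identifier alone spanned more, from -0.49 at 6 h to 0.18 at 18 h, than the b-named probe, from -0.29 to 0.00, and the pair differed by up to 0.46 on an array. The untreated level of Rab-10 was 9.98 ± 0.10, 9.93 ± 0.04 and 9.81 ± 0.02, and its toxin level 9.59 ± 0.30, 9.67 ± 0.14 and 9.90 ± 0.23.

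Ordered by their ratio, Rab-7 stood highest at 6 h and Cdc42 at 12 and 18 h, and the mean ratios of the Rab genes lay between -0.39 and 0.47 at every time point. No Rab gene was called between time points. The probes carry no sequences here and the members of these families resemble each other, so that signal from a related transcript on a probe cannot be told apart from that of the named gene.

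The genes closest to Cdc42, the called GTPase, were sought by the mean absolute difference of their 12 log2 ratios. Candidates were 13791 others that were well above background in either channel, not necessarily in both, on all 12 arrays. Nearest were the pair of genes named ribosome biogenesis protein RLP24 (CPIJ001214, difference 0.14, and CPIJ008817, 0.14) and a conserved hypothetical protein (CPIJ002519, 0.16). CPIJ001214 had means of -0.11 ± 0.18, 0.99 ± 0.24 and 0.80 ± 0.23 at 6, 12 and 18 h.

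Genes that work with small GTPases were grouped from the names in the study's own table of regulated genes, so that their selection on these samples gives no independent evidence of direction. Among 8 other small GTPases, RAS (CPIJ008365), a switch of growth signalling, rose at all 3 time points, with log2 ratios of 1.48 ± 0.30, 1.69 ± 0.24 and 0.96 ± 0.26. ADP-ribosylation factor 1 (CPIJ004239), which recruits coat proteins to the Golgi, fell at 6 h (-0.87 ± 0.17) and 12 h (-0.97 ± 0.17). Rab31 (CPIJ004760) fell at 12 h (-0.92 ± 0.17). In this list 1 gene was called higher at each time point, with 1 and 2 called lower at 6 and 12 h, and the median ratio was -0.22, -0.22 and 0.08. Over all genes, 5.45%, 9.39% and 4.21% were called in either direction at 6, 12 and 18 h.

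Of 13 regulators and prenylation enzymes, 1 rise and 1 fall were called at 6 h as well as at 12 h, and 1 fall at 18 h, with median ratios of 0.06, -0.03 and -0.13. Rabenosyn-5 (CPIJ003819), which in mammals binds the active form of Rab5 on early endosomes, rose at 6 h (0.77 ± 0.06) and 12 h (0.75 ± 0.21), both close to the fold threshold. The GTPase-activating protein ZNF289 (CPIJ002306), a regulator of ADP-ribosylation factors in mammals, fell at 6 h (-1.02 ± 0.07) and 12 h (-1.14 ± 0.17), and a TBC-domain protein (CPIJ018757), of a family that switches off Rab proteins, fell at 18 h (-0.83 ± 0.16), a call that was lost with median centring and with normexp fitted on all spots. Rabenosyn-5 was not called at either time point with scale normalization between arrays or with normexp fitted on all spots, which left 0 of the 13 genes called higher there by limma, beside 5 with an unadjusted p under 0.05 in that direction at each of these time points as reported.

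Among 28 genes of endosomes and vesicle traffic, there were 2 rises at 6 h, 1 rise and 3 falls at 12 h, and 1 of each at 18 h, where median centring gave 5 rises and no fall. The median ratios were 0.11, 0.14 and 0.06. Scale normalization, and normexp fitted on all spots, each left 1 rise at 6 h and 2 falls at 12 h. The lysosomal trafficking regulator (CPIJ005368), whose loss in humans enlarges lysosomes, rose at all time points (1.60 ± 0.42, 0.93 ± 0.39 and 0.83 ± 0.09), though not at 18 h with normexp fitted on all spots, and a vacuolar protein sorting gene (CPIJ011708) rose at 6 h (0.79 ± 0.14). At 12 h the falls were those of a syntaxin-binding protein (CPIJ013548, -1.06 ± 0.09), which fell at 18 h as well (-0.87 ± 0.18), a vacuolar sorting protein (CPIJ010292, -0.89 ± 0.09) and the clathrin coat assembly protein AP17 (CPIJ009504, -0.81 ± 0.17).

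Of 8 genes of transport between the endoplasmic reticulum and the Golgi, 2 were called lower at 6 h and 3 at 12 h. These were the gamma subunit of coatomer (CPIJ012523, -0.81 ± 0.11 and -1.10 ± 0.13), the zeta-1 subunit (CPIJ003005, -0.78 ± 0.11 and -1.0 ± 0.16), both parts of the coat of Golgi vesicles, and at 12 h the coat protein SEC13 (CPIJ003296, -0.79 ± 0.10). The median ratio of the list was -0.67, -0.63 and -0.24, and with median centring in place of loess it was -0.46, -0.56 and 0.19, so that its direction at 18 h turned. With median centring, and with normexp fitted on all spots, the count of falls at 6 h was 0. In the limma fit as reported, 7 of the 8 genes had an unadjusted p under 0.05 and a ratio below 0 at 6 h. Of all 19751 genes, 3496 passed at 6 h by adjusted p alone with a ratio below 0, and 633 were called lower. The list was chosen for change on these samples, so its count gives no independent evidence of a fall. Scale normalization gave 1 fall at 6 h and 2 at 12 h, and normexp fitted on all spots gave 2 at 12 h. Among 14 actin and motor proteins, 1 gene named actin (CPIJ003226) was called, at 12 h (0.77 ± 0.08), and not with scale normalization or with normexp fitted on all spots. The list's median was -0.02, 0.06 and -0.04.

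**Figure D4:**
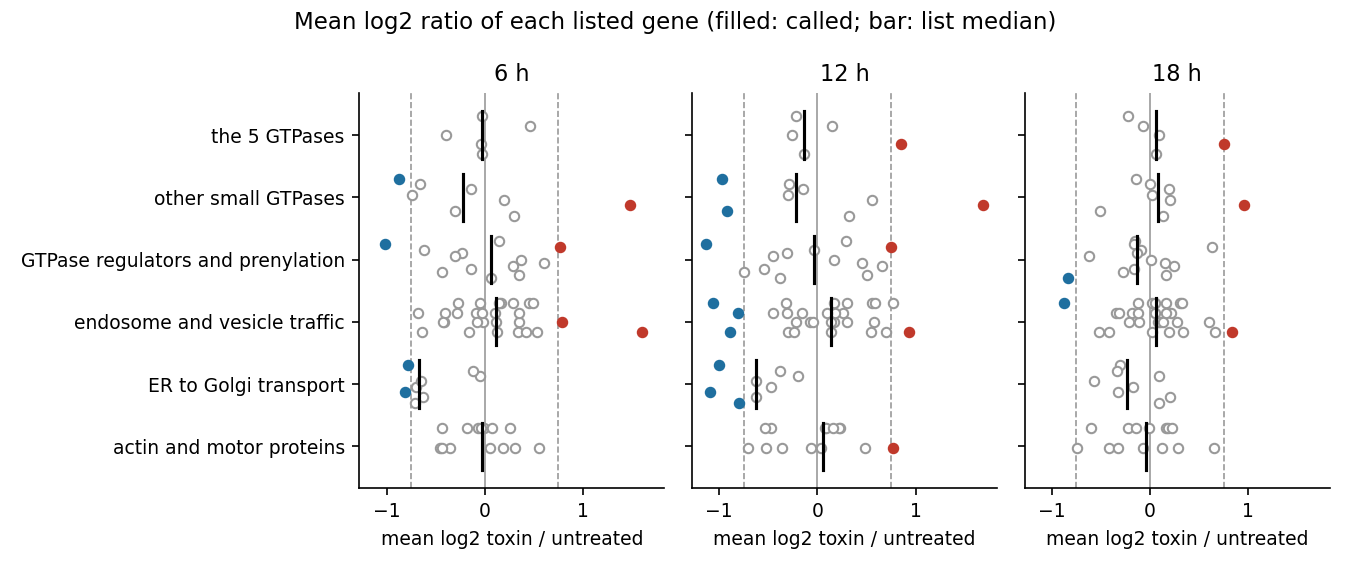
Mean log2 ratio of toxin over untreated (x axis) of each gene in the lists named on the y axis, in 1 panel per time point. Each point is 1 gene as the mean of 4 arrays, red where called higher, blue where called lower and open where not called, black bars are list medians and dashed lines mark 0.75 in either direction. The ER to Golgi genes lie to the left at 6 and 12 h, with medians of -0.67 and -0.63.

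**Figure D5:**
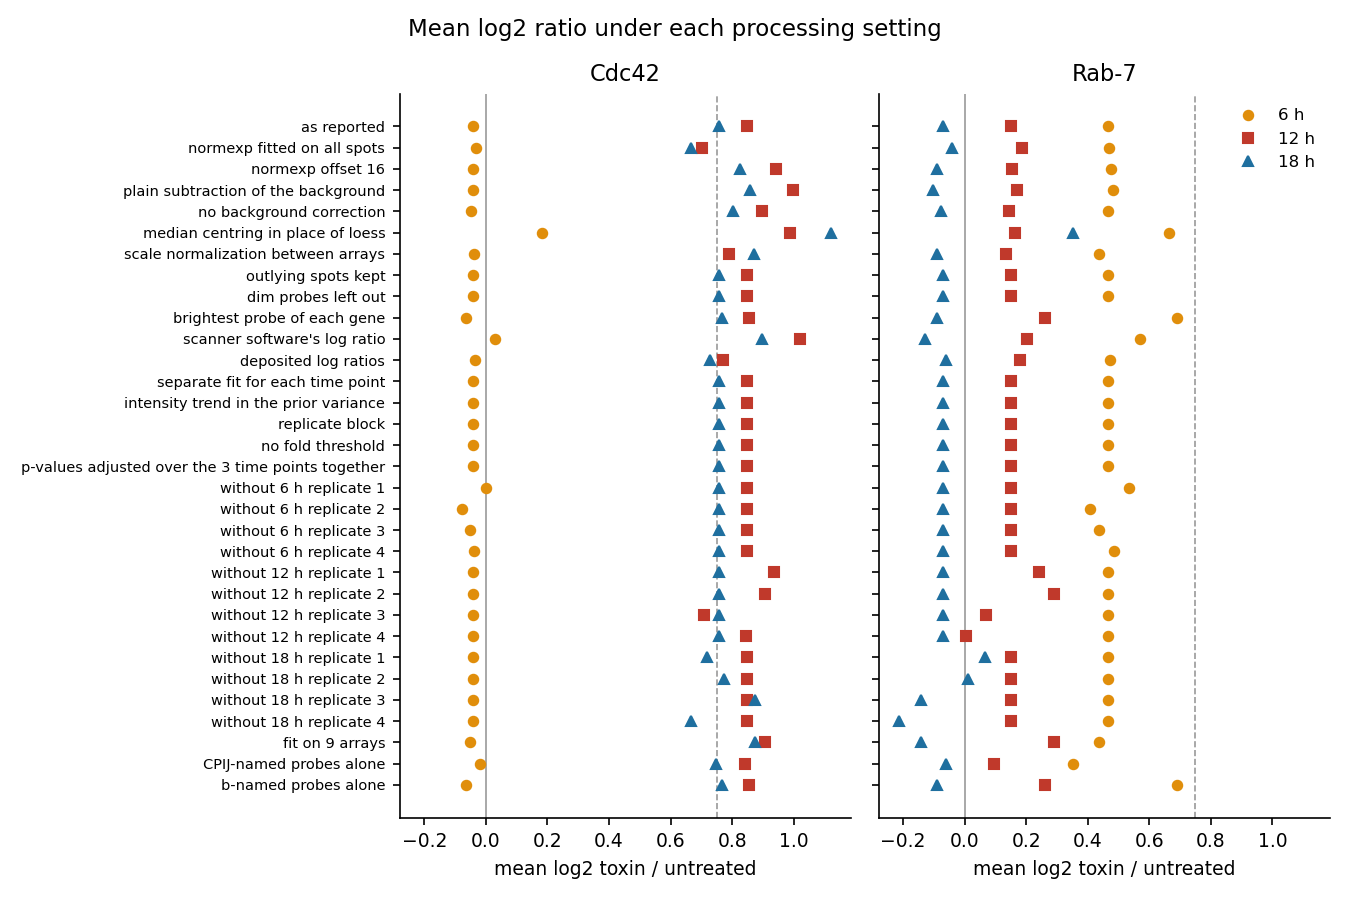
Mean log2 ratio of toxin over untreated (x axis) of Cdc42 and Rab-7 at 6 h (circles), 12 h (squares) and 18 h (triangles) under each processing setting (y axis). The dashed line marks 0.75. Cdc42 lies on both sides of it at 12 and 18 h, from 0.70 to 1.02 and from 0.66 to 1.12, and Rab-7 stays below it, from 0.35 to 0.69 at 6 h.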

How the data were processed

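Midgut RNA from 12 pairs of untreated and toxin-treated samples was measured on 2-colour Agilent arrays. Feature Extraction 11.5.1.1 wrote, per the file headers, a median pixel intensity for each spot and its local background, and the deposited log10 values are that software's own red over green ratios. The authors deposited a table of log2 ratios made with limma, which normexp with an offset of 16 and loess on all spots matched to within 4.98e-08. Normexp on all spots gave 3 arrays (replicate 3 of 6 h, replicate 2 of 12 h and replicate 3 of 18 h) a narrow interquartile range of 0.022 to 0.048, against 0.194 to 0.333 on the others. Spots with uneven local background (29 to 153 an array) were therefore left out before normexp (offset 50), and the range became 0.231 to 0.295 on these 3 arrays. Control spots (1417 of 45220) and outlying spots (6 to 62 an array) were dropped, ratios were loess-normalized, and each gene took the mean of its spots. A single limma model of all 12 arrays held 1 mean per time point, and p-values were Benjamini-Hochberg adjusted for each test over all genes. Channel levels were taken after quantile normalization of the mean brightness (Aquantile).

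Named are the 5 GTPases, up to 3 of the largest rises and falls among called genes of each list, and the 3 genes closest to the called GTPase. Of the 6 genes of the set, 1 is not reported here. The members, the lists (other small GTPases, regulators and prenylation, endosome and vesicle traffic, ER to Golgi transport, actin and motor proteins, and markers of midgut, fat body, muscle, cuticle and haemocytes) and the background correction were chosen with earlier results of these data known. Gene names are those of the study's tables, since 0 of the identifiers matched the RefSeq table. The limma fit and the call rule were tested on simulated log ratios, with changes larger than those of the GTPases. Background correction and normalization were not part of that test. The number of arrays limits the precision. Alternatives were other background corrections, offsets and normalizations, other spots or probes of a gene, the scanner's and the deposited ratios, other fits and call rules, and arrays left out; each probe type alone was added after seeing the data. Statistics were run in R 4.3.3 with limma 3.58.1, and figures in Python 3.11.15 (matplotlib 3.10.9).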

Additional observations from a re-analysis of the deposited data

Results flagged for a closer look

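The toxin effect on 2 of the 5 GTPases differed between exposure times in a direct test of the difference (limma contrasts with Benjamini-Hochberg adjustment over all genes). The log2 ratio of Cdc42 was higher by 0.89 at 12 h than at 6 h (adjusted p = 0.00527) and by 0.80 at 18 h than at 6 h (0.00447). The ratio of Rab-10 was higher by 0.48 at 18 h than at 6 h (0.0192), below the fold threshold. By adjusted p alone, 2514 of all 19751 genes passed for 12 against 6 h and 3876 (19.6%) for 18 against 6 h. The differences of Cdc42 did not pass with the deposited log ratios (0.127 and 0.109) or with normexp fitted on all spots (0.130 and 0.113). That of Rab-10 did not pass with the b-named probe alone (0.101). Each time point had its own slide, and slide and time cannot be told apart.

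For each GTPase at each time point, the 4 arrays were also searched for a single array far from the rest. In 15 such groups no array stood apart by Dixon's test at the level where chance marks about 1 group in 20.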

How the results depend on the processing

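No called value of a GTPase changed sign in any of the 31 other settings. Of 900 values (a GTPase at a time point or between time points under a setting), 847 kept their direction and their side of the threshold, 12 lost a call, 6 gained one, and 35 that were not called changed sign, the largest of these at 0.41. Many of the 847 could not change direction. Other fits and call rules, and an array left out at another time point, leave the mean of a time point as it is. As reported, the GTPases called were 0, 1 and 1 at 6, 12 and 18 h, 1 for 12 against 6 h, 0 for 18 against 12 h and 1 for 18 against 6 h. Normexp fitted on all spots gave 0 at 12 h, 0 at 18 h, 0 for 12 against 6 h and 0 for 18 against 6 h, where 2, 1, 1 and 3 GTPases had an unadjusted limma p under 0.05. The deposited log ratios gave 0 at 18 h, 0 for 12 against 6 h and 0 for 18 against 6 h, with 1, 1 and 3 at an unadjusted p under 0.05. Both settings keep the 3 arrays of narrow log ratios as they are. Probes named by the identifier alone gave 0 at 18 h (2 at an unadjusted p under 0.05). No fold threshold gave 2 at 6 h (Rab-7 and Rab-10), 2 at 12 h (Cdc42 and Rab-10) and 2 for 18 against 6 h (Cdc42 and Rab-10), where the brightest probe of each gene, and the b-named probes alone, also gave 2 (Cdc42 and Rab-7). With each array left out in turn, the counts ranged from 0 to 1 at 12 h (0 without 12 h replicate 3), from 0 to 1 at 18 h (0 without 18 h replicate 1 or 4) and from 0 to 1 for 18 against 6 h (0 without 18 h replicate 4), with 4, 1, 2 and 3 GTPases at an unadjusted p under 0.05 in these 4 fits, and the other counts did not move. The cause of these changes was not tested. A fit without the 3 narrow arrays changed no count.

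Deviations of log ratios from the mean of their time point were compared between arrays of different time points. Those of same-numbered arrays correlated between -0.11 and 0.39 over 12 pairs, with 8 above 0.1. Those of other-numbered arrays correlated between -0.50 and 0.53 over 36 pairs, with 12 above 0.1. Whether replicate numbers pair the samples was not tested. With a replicate block the counts were 0, 1 and 1 at 6, 12 and 18 h and 1, 0 and 1 between time points (2 GTPases at 6 h and 1 for 18 against 12 h had an unadjusted p under 0.05). Over all genes, 1076, 1855 and 831 were called at 6, 12 and 18 h, and with the scanner software's log ratio 1641, 3290 and 1859, with no fold threshold 7023, 9074 and 5788. Median centring gave 784 higher and 406 lower at 6 h (443 and 633 as reported), 991 and 952 at 12 h (767 and 1088) and 1551 and 171 at 18 h (478 and 353). Between time points, 376 (12 against 6 h), 732 (18 against 12 h) and 880 (18 against 6 h) were called as reported, 182, 459 and 555 with normexp on all spots, and 2514, 3803 and 3876 with no fold threshold. The first was 599 with plain subtraction, 636 with the scanner's ratio and 198 with the deposited ratios, the second 1522 with median centring and 1154 with the scanner's ratio, and the third 579 with the deposited ratios. Median centring moved the split of higher and lower from 179 and 197, 534 and 198, and 558 and 322 to 133 and 402, 1446 and 76, and 965 and 187. It also gave 1722 calls at 18 h.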
